A study of Vitis vinifera with 74 samples.

Results

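A set of 47 genes was abundant in both leaves and buds of the grapevine (Vitis vinifera) cultivar Cabernet Franc. With counts scaled by column total, these genes had nearly level group means through an abscisic acid (ABA) treatment in each organ. With another scaling, described below, 15 of the 47 met the same condition in buds. The members were chosen by their measured levels from 42413 gene identifiers. A gene entered when its mean was at least 50 CPM (counts scaled so that each column sums to 1000000) over the 40 leaf libraries and over the 34 bud columns, and when its highest and lowest log2 group mean CPM lay less than 0.5 apart both across the 9 leaf groups and across the 11 bud groups. A distance of 0.5 on the log2 scale is a fold of 1.41. Group means, their ranges and every ABA difference built from them were therefore used in the choice, and they are given below as descriptions that support nothing.

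Leaves came from potted vines on their own roots in a greenhouse, and the spray held S-ABA at 500 mg per litre (1.9 mM) plus the surfactant Tween-20, which the control spray of deionized water held too. The 9 leaf groups were a pre-treatment group of 8 libraries and a control and an ABA group of 4 libraries each at 2, 4, 24 and 48 h after the spray. Buds came from single-node cuttings of canes taken dormant from field-grown vines, forced in a growth room to the woolly-bud stage and then given S-ABA at 1322 mg per litre (5 mM) or deionized water by hand sprayer. The 11 bud groups were a pre-treatment group and a control and an ABA group at 6, 12, 24, 48 and 72 h, each with 3 count columns except the 48 h control with 4. All plants were of 1 cultivar and no group carried a genetic change. The labels do not tie a leaf library to a vine and do not say how many buds a column represents, so the spread between leaf libraries may be partly technical.

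Abscisic acid is a plant hormone made under water shortage and cold and during dormancy. It binds receptors that inhibit protein phosphatases, which frees kinases that phosphorylate transcription factors, and many transcripts change as a result. Genes whose transcripts stay level through such a response are sought in plant studies as references against which other transcripts are scaled, and the level of a relative measure such as CPM also depends on what every other transcript in the sample does. In RNA from whole leaves or buds, fewer cells of a type and less RNA per cell cannot be told apart.

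The deposited tables pair no name with any identifier, and 0 of the 42413 identifiers occurred in the RefSeq gene table of 29591 genes, so the members are described by identifier and level, and no function is given for them. For the same reason the labelled organs could not be checked against marker genes. Libraries were made from 3′ ends of transcripts, which gives about 1 tag per transcript whatever its length. A leaf library held between 1321798 and 2414909 counts in all, and a bud column between 1526985 and 2616086. The fewest counts behind any member's value were 54 in a leaf library and 235 in a bud group with its columns added up. Values given below for single bud columns can rest on fewer counts than that. Over all genes, the chi-square between 2 leaf libraries of a group, divided by its degrees of freedom, was 3.85 to 25.4, where 1 is sampling noise alone. Pairs of bud columns of a group lay between 1.02 and 1.17, and those of the 48 h control between 1.34 and 2.00. Per the labels, 3 sequencing runs were made of every library, and it is not known whether the columns of a bud group are such runs or separate libraries. Because they differed by about sampling noise, the columns of a group were added up and counted as 1 sample. The 4 columns of the 48 h control, which differed by more than that, were added up in the same way so that each group held 1 sample. The summed bud libraries held 4923240 to 7698363 counts.

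Being level in buds was the narrower of the conditions. At least 50 CPM on average was reached by 3508 genes in leaves, by 3551 in buds and by 2250 in both. Of these 2250 abundant genes, 720 (32.0%) met the condition on leaf group means, 71 (3.16%) met that on bud group means, and 47 (2.09%) met both. The members thus made up 66.2% of the genes level in buds and 6.53% of the genes level in leaves. Among the 2179 abundant genes not level in buds, 30.9% were level in leaves. The 24 genes level in buds but not in leaves had a median leaf range of 0.61 (0.52 to 2.83). The 673 genes level in leaves but not in buds had a median bud range of 1.03 (0.50 to 4.04). The members were spread over the levels of the abundant genes. They were 27 of the 1191 genes (2.27%) whose smaller mean lay between 50 and 100 CPM, 13 of 614 (2.12%) between 100 and 200 CPM and 7 of 445 (1.57%) at 200 CPM or more.

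The leaf range of the members ran from 0.16 to 0.50 with a median of 0.33 on the log2 scale, where the abundant genes had a median of 0.64. Their bud range ran from 0.23 to 0.50 with a median of 0.44, against 1.28 in the abundant genes. In 39 of the 47 members (83.0%) the bud range was the larger, as it was in 87.3% of the abundant genes. The ranks of the leaf and bud ranges had a Spearman rho of 0.16 across the members and 0.44 across the abundant genes. These are descriptions over genes that share their libraries, and the members' coefficient is taken inside a narrow window fixed by the choice.

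**Figure D1:**
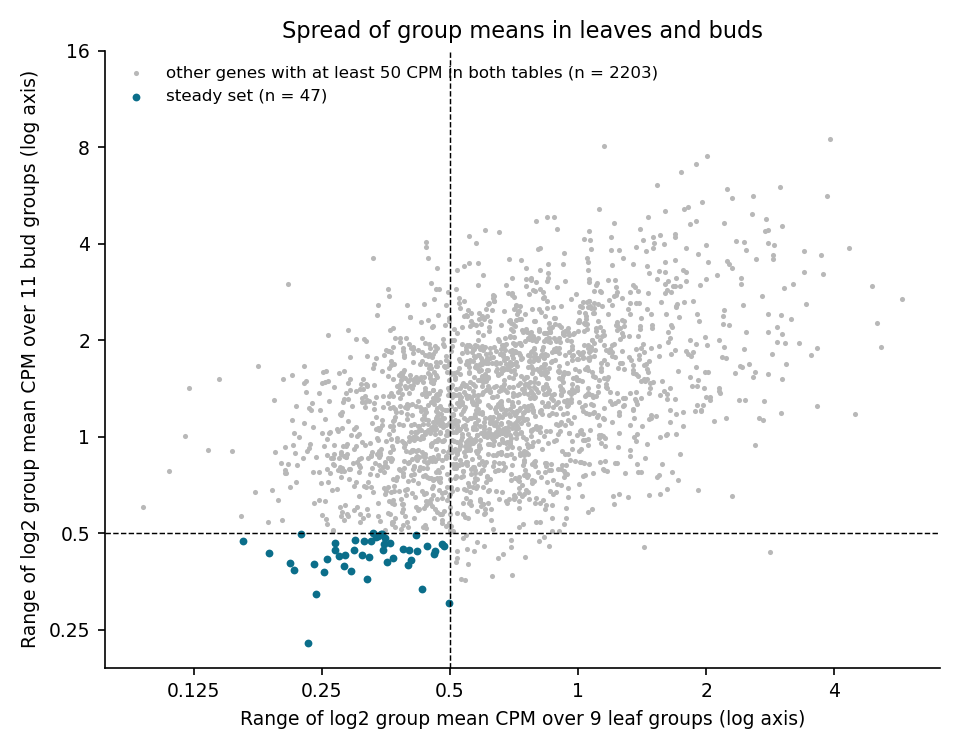
Range of the log2 group mean CPM (highest minus lowest group) of each of 2250 abundant genes across the 9 leaf groups (x axis, log scale) and the 11 bud groups (y axis, log scale), with dashed lines at 0.5. The 47 members fill the lower left corner, and most grey points lie above the line for buds, which only 71 genes meet.

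The choice ended inside a continuous spread of values. Nearest inside the limit was Vitvi11g00659, with a bud range of 0.4996 and a leaf range of 0.33. Nearest outside was Vitvi05g00027, which is not a member, with a bud range of 0.5004 and a leaf range of 0.33. Further members just inside were Vitvi02g00138 (larger range 0.498), Vitvi03g00690 (0.497), Vitvi18g00736 (0.496) and Vitvi08g01266 (0.496). The next genes outside were Vitvi01g00220 (0.503), Vitvi16g00959 (0.508), Vitvi06g01523 (0.510) and Vitvi16g01315 (0.510). These distances from the limit are far smaller than the shifts that another scaling of the bud libraries gives, described below.

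The member with the smallest larger range was Vitvi15g00725. Its leaf libraries ran from 107 to 190 CPM with a mean of 144.7 ± 17.0 CPM (SD, n = 40), and its bud columns ran from 87.3 to 116 CPM with a mean of 103 ± 6.82 CPM (SD, n = 34 columns). Both ranges of its log2 group means were 0.23. The highest leaf group was the 24 h control, with 162, 173, 139.7 and 158 CPM in replicates 1 to 4. The lowest was ABA at 48 h, with 144, 151, 137 and 107 CPM. The values of these groups overlapped, and the single highest leaf library, at 190 CPM, belonged to ABA at 24 h, whose other libraries held 115, 129 and 141 CPM. In buds the highest group was the 6 h control, at 111 CPM when its columns were added up (95% Poisson interval 103 to 119). The lowest was the 48 h control, at 94.4 CPM (87.7 to 102). These intervals cover counting error only, and those of the 48 h control leave out that its columns differed by more than sampling noise. The intervals did not overlap, but the groups were picked as highest and lowest, and the same held for all 47 members. Nothing is therefore read from the gap. For this gene, chi-square per degree of freedom between the summed bud groups was 1.52, the lowest of the members. A value of 1 is sampling noise alone.

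Vitvi05g02046 was both the second most level member and the one with the highest smaller-of-leaf-and-bud mean, at 956 CPM in leaves and 807 CPM in buds. Its ranges were 0.24 in leaves and 0.32 in buds. Leaf libraries ran from 611 to 1135 CPM. The lowest of them was replicate 1 of the 2 h control, whose other replicates held 841, 954 and 1003 CPM, and that library is 1 of the 4 sequenced on a second flow cell. Buds before treatment held 700.0, 725 and 699 CPM in their 3 columns, the lowest group. The highest was ABA at 24 h with 853, 906 and 898 CPM. By column total the columns of these bud groups did not overlap, although the fold between the group means stayed under the limit. These columns may be runs of 1 library, so this is no replicate check.

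Vitvi18g01161 had the highest bud level of the set and the greatest excess of buds over leaves. Its mean was 632 CPM in leaves and 1369 CPM in buds, a log2 difference of 1.11. Its leaf group means ran from 581 ± 87.7 CPM in the 2 h control to 672 ± 72.5 CPM in ABA at 24 h (SD, n = 4 each). The lowest library of each of these groups, at 459 and 574 CPM, was its replicate 1 from the second flow cell. In buds the columns held 1193, 1218 and 1188 CPM with ABA at 6 h against 1365, 1383 and 1329 CPM in the control, and 1584, 1618 and 1563 CPM with ABA at 24 h against 1334, 1291 and 1369 CPM. By column total no ABA column overlapped a control column at either time, but the columns may be runs of 1 library, so this is no replicate check. Summed per group, the lowest value was 1200.4 CPM (95% Poisson interval 1170.02 to 1231) with ABA at 6 h and the highest 1590.1 CPM (1560.02 to 1621) with ABA at 24 h.

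Vitvi07g00211 lay furthest below in buds, with a mean of 214.5 CPM in leaves and 63.0 CPM in buds, a log2 difference of -1.77. Its leaf libraries were highest in the 4 h control, at 223, 256, 252 and 284 CPM, and lowest in the 48 h control, at 162, 172, 165 and 229 CPM. These groups overlapped through replicate 4 of the 48 h control. In buds it ran from 72.5 CPM in the 24 h control (95% Poisson interval 66.0 to 79.4) to 52.7 CPM with ABA at 72 h (46.4 to 59.5). Its mean over bud columns was thus close to the minimum of 50 CPM.

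**Figure D2:**
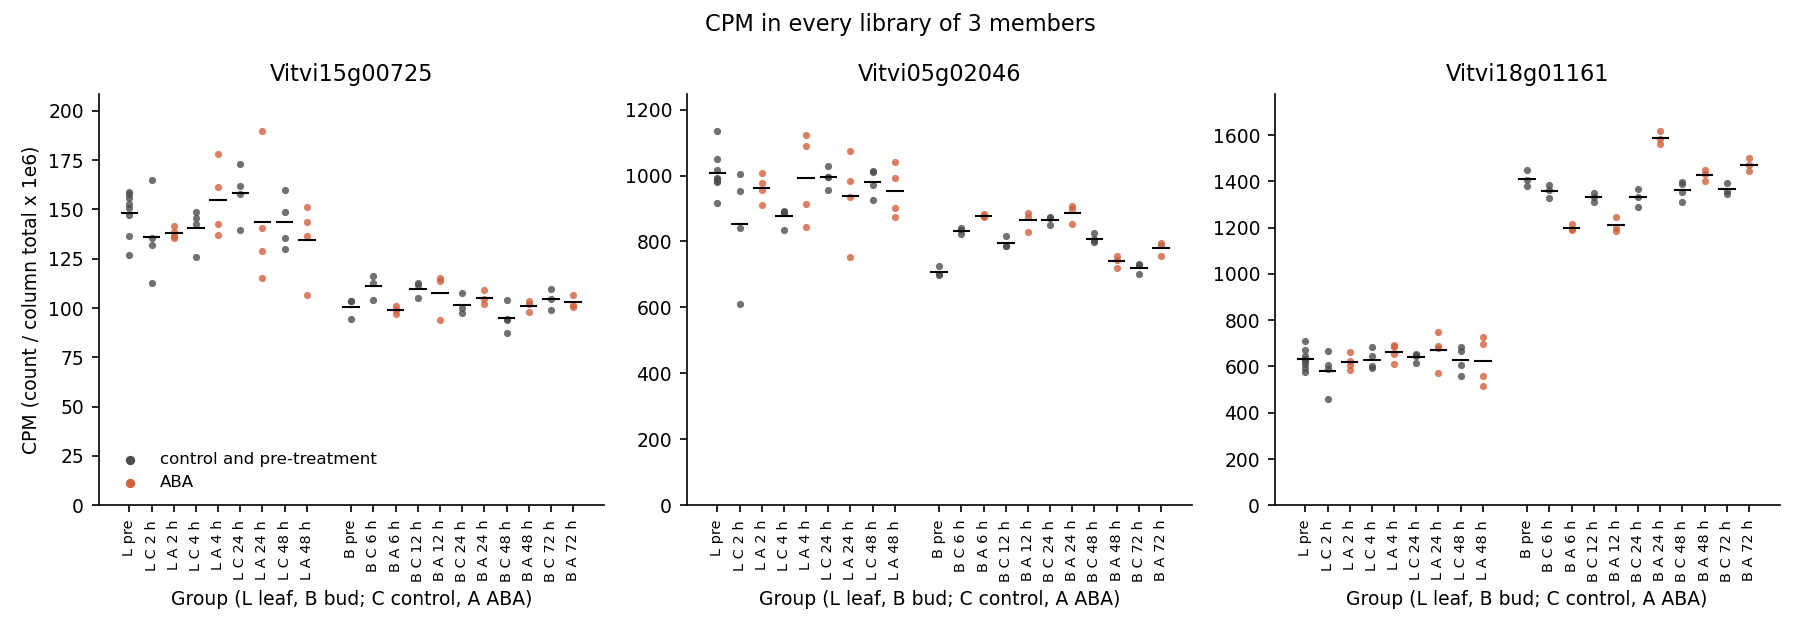
CPM (counts scaled to the column total, linear axis from 0) of Vitvi15g00725, Vitvi05g02046 and Vitvi18g01161 in every leaf library and bud column by group, with a bar at each group mean. Leaf libraries of a group scatter widely, whereas bud columns of a group lie close together and several bud groups stand apart, as ABA at 24 h does at 1563 to 1618 CPM in Vitvi18g01161.

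Vitvi11g00659, the member at the limit, had 73.1 CPM in leaves and 81.7 CPM in buds. Its bud columns held 106, 90.4 and 95.0 CPM with ABA at 12 h, the highest group, and 68.8, 61.9 and 75.0 CPM in the 72 h control, the lowest. Vitvi06g00515 had 236.7 CPM in leaves and 218 CPM in buds. Its leaf group means were highest before treatment, at 264 ± 39.8 CPM (SD, n = 8, libraries 188 to 323, median 267), and lowest with ABA at 4 h, with libraries of 194, 244, 209 and 178 CPM. The pre-treatment and ABA libraries overlapped. By column total, Vitvi06g00515 in buds held 250, 267 and 243 CPM in the 72 h control and 184, 195 and 194 CPM with ABA at 12 h. These columns did not overlap, but they may be runs of 1 library, so this is no replicate check. The other scaling described below shifts these groups towards each other, by -0.15 and 0.26 on the log2 scale.

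Levels in leaves and buds were not part of the choice beyond the minimum of 50 CPM in each, and they lay close for most members. Mean leaf levels ran from 53.4 to 956 CPM with a median of 104 CPM, and mean bud levels from 52.2 to 1369 CPM with a median of 105 CPM. The abundant genes had medians of 128 and 124 CPM. The log2 level in buds minus that in leaves had a median of 0.10 in the members and 0.04 in the abundant genes. Buds were higher in 25 members and lower in 22. The levels lay within 1.5-fold in 28 members (59.6%) and in 46.8% of the abundant genes. They lay 2-fold or more apart in 4 members (8.51%) and in 667 abundant genes (29.6%). Those 4, of which Vitvi06g00692 and Vitvi04g00266 are named after their values were seen, were Vitvi18g01161, Vitvi07g00211, Vitvi06g00692 (144 CPM in leaves, 293 CPM in buds) and Vitvi04g00266 (353 and 118 CPM). Across genes, Pearson's r of the log2 levels was 0.80 in the members (Spearman rho 0.69) and 0.61 in the abundant genes (0.56). The experiments differed in year, read length (85 and 75 bp), plant material and dose, so organ and experiment cannot be told apart and no test was made.

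**Figure D3:**
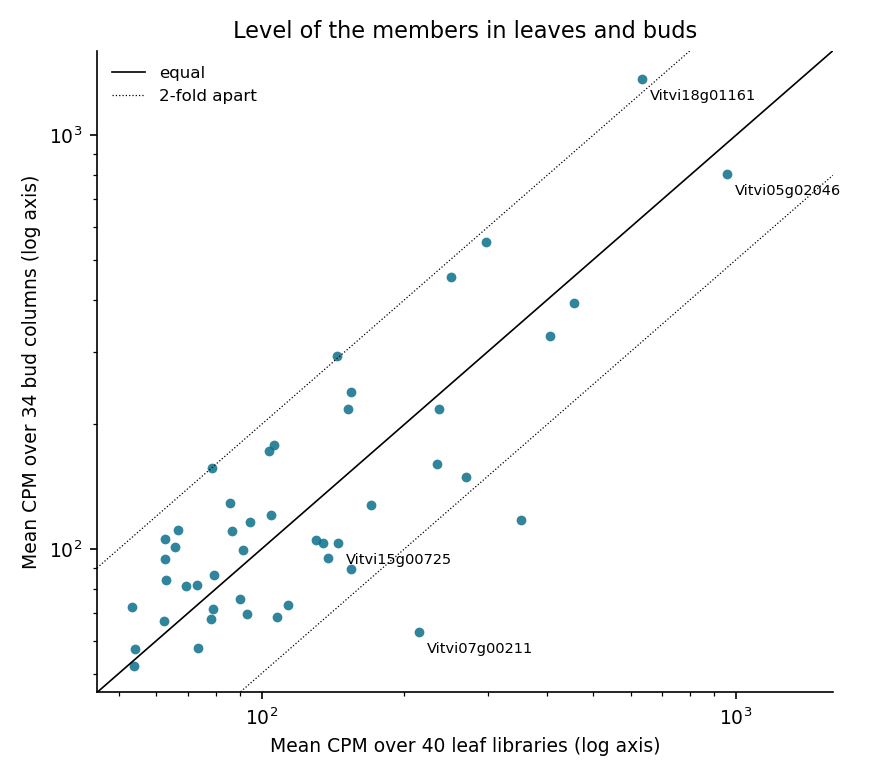
Mean CPM of the 47 members over 40 leaf libraries (x axis, log scale) and over 34 bud columns (y axis, log scale), with a solid line of equal level and dotted lines 2-fold apart. Of the 4 members outside the dotted lines, Vitvi18g01161 lies above at 632 and 1369 CPM and Vitvi07g00211 below at 214.5 and 63.0 CPM.

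Together the members took a small and fairly constant share of all counts. The share ran from 0.675% to 0.845% over the leaf libraries (median 0.779%) and from 0.817% to 0.901% over the bud columns (median 0.855%). The 4 leaf libraries sequenced on a second flow cell held the lowest shares, 0.675%, 0.685%, 0.731% and 0.732%. The lowest share on the first flow cell was 0.733%, and the part of the flow cell was not tested. By leaf group the share ran from 0.751 ± 0.0104% in the 4 h control to 0.801 ± 0.0509% with ABA at 24 h (SD, n = 4 each). The ranges of the libraries of these groups overlapped through replicate 1 of ABA at 24 h (0.731%), which is on the second flow cell. Among buds it was lowest with ABA at 12 h (0.822 ± 0.00293%) and highest with ABA at 24 h (0.899 ± 0.00196%, SD, n = 3 columns each). The columns did not overlap, but they may be runs of 1 library, so this is no replicate check. The order rests on the column total, since the other scaling described below raises these groups by 0.26 and 0.11 on the log2 scale. This sum rests on the same values that chose the genes.

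By column total, the groups at the ends of the members' ranges were mixed. In leaves ABA at 4 h was the highest group for 11 of 47 members and the lowest for 8, and for 26.0% and 14.4% of the abundant genes. ABA at 48 h was the highest for 5 and the lowest for 11, and for 12.0% and 29.7% of the abundant genes. In buds the pre-treatment group was the lowest for 10 members and the highest for 5, and for 17.7% and 18.0% of the abundant genes. The 6 h control was the highest for 8 members and the lowest for 4, and for 13.0% and 4.44% of the abundant genes. With another scaling the bud groups were not mixed in this way, as described below. By column total the median member lay within 0.06 log2 units of its own mean in every group of both organs. By column total the abundant genes moved further in buds, with median deviations of -0.20 with ABA at 12 h and -0.13 with ABA at 48 h, where the members had -0.03 and 0.05. The other scaling described below shifts all genes in these groups by 0.26 and -0.01 on the log2 scale. It brings the members' median deviation to 0.22 with ABA at 12 h and 0.04 with ABA at 48 h. The contrast with ABA at 12 h therefore depends on the scaling.

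ABA minus control differences in log2 group mean CPM were small in leaves, as the choice required. At the 4 successive times their medians over the members were 0.01, 0.08, 0.00 and -0.02, with single values between -0.30 and 0.32. ABA was the higher in 24, 30, 24 and 20 of 47 members at these times, and in 49.6%, 56.9%, 40.4% and 42.5% of the abundant genes. The abundant genes had medians of 0.00, 0.04, -0.07 and -0.05. The median size of the difference, whatever its sign, was 0.08 to 0.11 in the members and 0.14 to 0.20 in the abundant genes. By level alone 7 members were higher with ABA at all 4 leaf times and 4 were lower, and 9.33% and 11.6% of the abundant genes were. Among the 7, Vitvi02g00221 differed by 0.23, 0.21, 0.21 and 0.27 at the successive times, with group means of 58.6 CPM before treatment, 58.6 to 66.8 CPM in the controls and 68.5 to 77.3 CPM with ABA. This identifier is given after its values were seen.

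In buds the medians at the 5 successive times were 0.02, -0.03, 0.04, 0.07 and 0.07, with single values between -0.41 and 0.50. By column total ABA was the higher in 27, 21, 30, 27 and 27 of 47 members, and in 40.2%, 37.6%, 40.5%, 41.7% and 54.9% of the abundant genes. The abundant genes had medians of -0.12, -0.27, -0.17, -0.17 and 0.06, and a median size of 0.32 to 0.60 where the members had 0.13 to 0.18. All of these values rest on the column total. The other scaling described below shifts the ABA groups by 0.03, 0.26, 0.11, -0.01 and -0.21 at these times. It shifts the control groups by 0.03, 0.03, -0.01, -0.09 and -0.15, so the sign and size of these medians depend on the scaling except at 6 h. The members higher with ABA at all 5 bud times were 3, namely Vitvi01g00943, Vitvi02g00138 and Vitvi08g01266, chosen after their values were seen, and 0 were lower at all 5, where 11.3% of the abundant genes were higher and 15.9% lower at all 5. Their largest differences were 0.34 at 12 h for Vitvi01g00943, 0.50 at 48 h for Vitvi02g00138 and 0.28 at 6 h for Vitvi08g01266. In leaves Vitvi08g01266 was lower with ABA at all 4 times, by amounts between 0.00 and 0.06. Each bud value compares the mean over the columns of 1 group with that of 1 other. A group counts as 1 sample, so these values have no replicate check.

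The choice depended on how bud libraries were scaled. CPM above divides by the column total. With TMM factors (trimmed mean of M values, which set each library's scale from the bulk of its genes) the bud group means moved by up to 0.26 on the log2 scale. The shift was 0.26 with ABA at 12 h, 0.11 with ABA at 24 h, -0.09 in the 48 h control, -0.15 in the 72 h control and -0.21 with ABA at 72 h, and no leaf group shifted by more than 0.07. The median deviation of the members then became 0.22 with ABA at 12 h, 0.15 with ABA at 24 h, -0.17 in the 72 h control and -0.21 with ABA at 72 h. ABA at 12 h was then the highest bud group for 21 members, and the 72 h control and ABA at 72 h were the lowest for 19 and 15. The bud range of the members rose to a median of 0.55 (0.37 to 0.91), so that 15 of 47 stayed under 0.5, while the leaf range kept a median of 0.34 and 43 stayed under. The ranges of Vitvi15g00725 became 0.29 in leaves and 0.53 in buds, and those of Vitvi05g02046 became 0.32 and 0.67. Vitvi18g01161 (0.27 and 0.48) and Vitvi06g00515 (0.36 and 0.43) kept both under the limit, and Vitvi07g00211 (0.41 and 0.78) and Vitvi11g00659 (0.32 and 0.91) did not. Applied from the start, the rule chose 34 genes with TMM, of which 14 were members, and 37 with RLE (relative log expression, the scaling of DESeq2), of which 18 were members. The number chosen by all 3 scalings was 12. No direction over time in buds is therefore given for the members as a group.

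**Figure D4:**
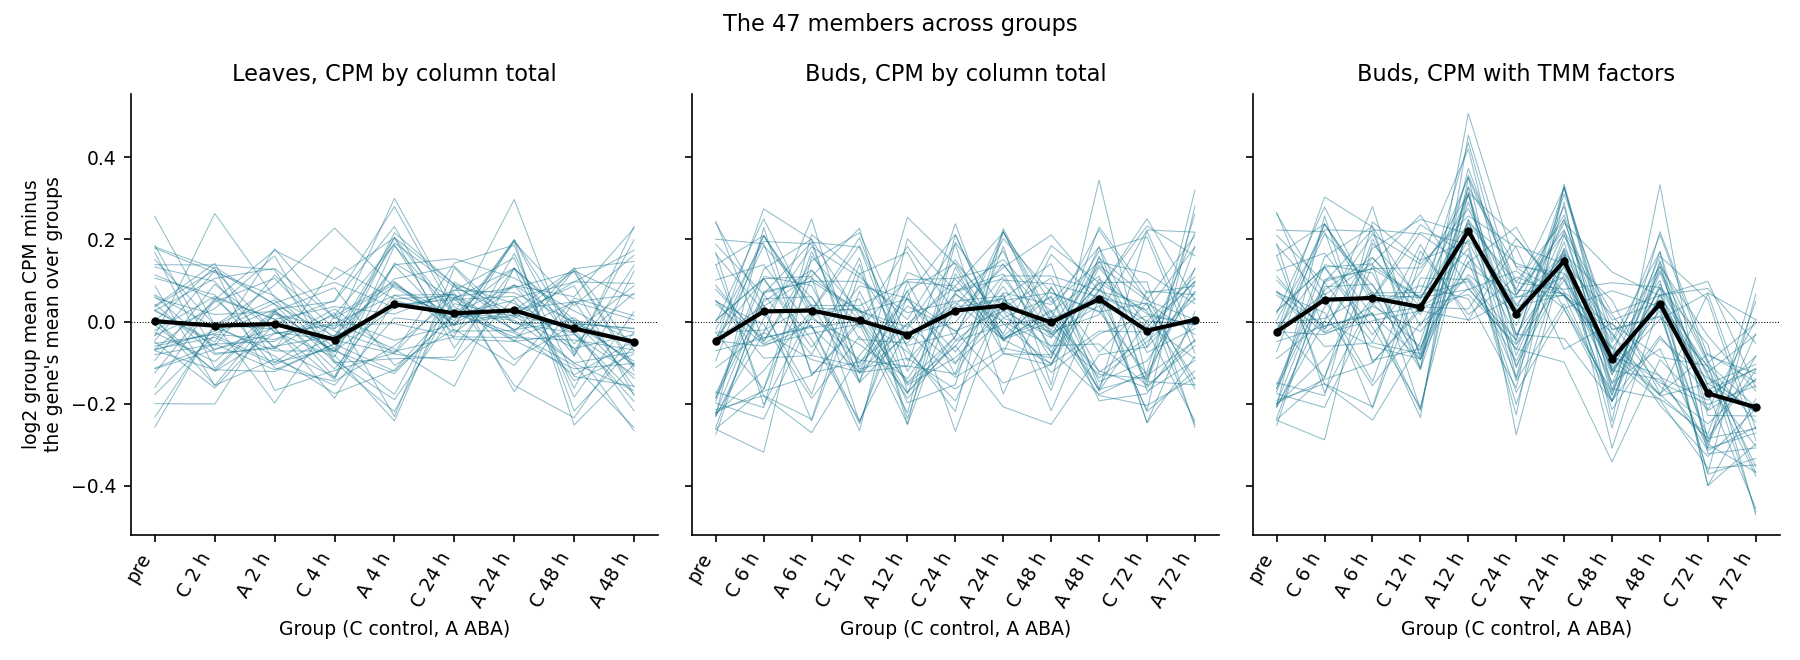
Deviation of each member's log2 group mean CPM from its own mean over groups (y axis) by group, for leaves and buds with CPM by column total and for buds with CPM by TMM factors; thin lines are the 47 members and the thick line their median. By column total the median stays within 0.06 of 0, and with TMM it reaches 0.22 with ABA at 12 h and -0.21 with ABA at 72 h.

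The spread between leaf libraries of a group, which the rule did not use directly, was small as well. The SD of log2(CPM + 1) within groups, pooled over the 9 leaf groups with 31 degrees of freedom, ran from 0.118 to 0.289 in the members with a median of 0.182. The median was 0.238 in the abundant genes, 0.190 in the 720 genes level in leaves and 0.236 in the 24 genes level in buds only. In 45 of 47 members it lay under the median of the abundant genes, and Vitvi05g00512 and Vitvi02g00138, named after their values were seen, were the exceptions. A gene with noisy libraries also has more widely scattered group means, so this measure is not wholly independent of the choice and no test was made. By group the members' median SD ran from 0.121 with ABA at 2 h to 0.195 with ABA at 48 h, and that of the abundant genes from 0.159 to 0.284 in the same groups. The coefficient of biological variation estimated by edgeR had a median of 0.129 in the members (0.0904 to 0.212), 0.164 in the abundant genes and 0.206 in all 13378 genes tested.

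**Figure D5:**
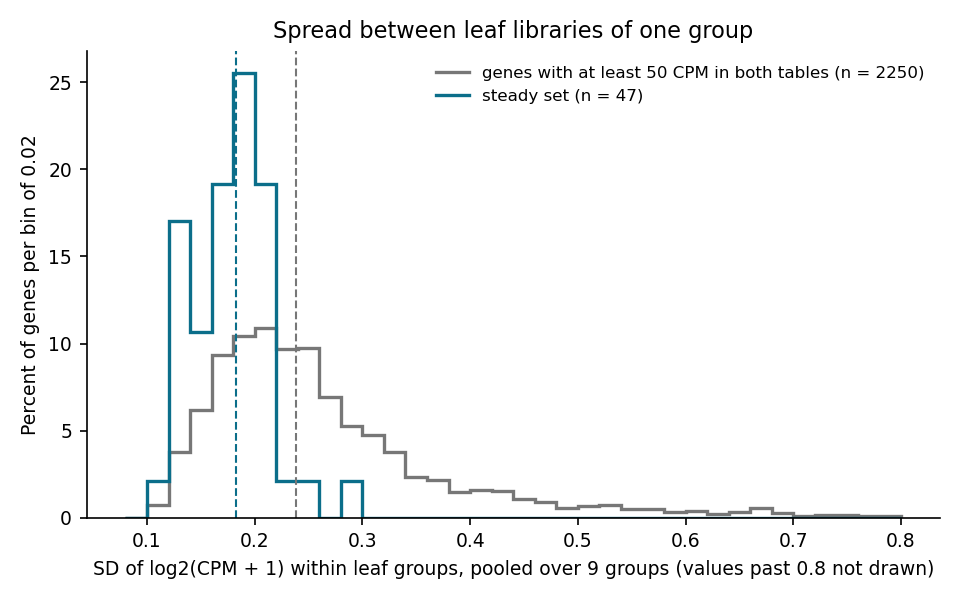
Share of genes (percent per bin of 0.02, y axis) by the SD of log2(CPM + 1) between leaf libraries of a group, pooled over the 9 leaf groups (x axis), for the 47 members and the 2250 abundant genes; dashed lines mark the medians. The members' median is 0.182 and that of the abundant genes 0.238.

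Single leaf libraries differed more than group means. All 40 leaf libraries lay within 2-fold of each other in 35 members (74.5%) and in 487 abundant genes (21.6%). The fold between the highest and the lowest leaf library ran from 1.47 to 2.89, with a median of 1.85 in the members and 2.58 in the abundant genes. Between bud columns it ran from 1.30 to 1.87 with a median of 1.55, against 2.74 in the abundant genes. These folds and the count within 2-fold include the group differences that the rule limited, so nothing is read from them. Of the 4 libraries on the second flow cell, ABA 48 h replicate 4 stood furthest from the first-flow-cell libraries of its group, with a median size of difference of 0.29 over the members (median difference -0.22, the library being lower). The first-flow-cell libraries of that group differed by 0.09, and the other 3 libraries on the second flow cell by 0.13 to 0.17. Of these, by size whatever the sign, the 2 h control library (0.145) and the ABA 24 h library (0.133) lay inside the values of their own groups' first-flow-cell libraries. Those values were 0.133 to 0.169 and 0.088 to 0.156. With its sign, the members' median difference was below 0 in these libraries too. It was -0.09 for the 2 h control, -0.06 for ABA at 24 h and -0.05 for ABA 48 h replicate 3. The abundant genes had -0.01, -0.08 and -0.002 there, and -0.12 for ABA 48 h replicate 4. Over the abundant genes the size was 0.37 for ABA 48 h replicate 4 and 0.26 to 0.33 for the others on the second flow cell. The part of the flow cell in this difference was not tested.

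Set against counting error, chi-square per degree of freedom between leaf libraries of a group had a median of 3.22 in the members (1.11 to 19.4) and 7.12 in the abundant genes. Between columns of a bud group, with the 48 h control left out, it was 0.930 (0.346 to 1.81) in the members and 1.07 in the abundant genes, about that of sampling noise. Between the summed bud groups it was 6.27 (1.52 to 50.9) in the members and 61.6 in the abundant genes. It was over 2 in 46 of the 47 members and in 2249 of the 2250 abundant genes, so this count sets the members apart from no other genes.

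Tests across all genes were made with edgeR's quasi-likelihood method and Benjamini-Hochberg adjustment, calling a gene at an adjusted p under 0.05. For any difference among the 9 leaf groups, 8 of the 47 members were called, where 39.6% of all genes tested were and 53.9% of the abundant genes. Nothing is read from this count, since the rule used these group means. The 8 had adjusted p between 0.0168 and 0.0492 and included Vitvi07g00211 (0.0247), Vitvi02g00221 (0.0168) and Vitvi04g00266 (0.0367). Vitvi04g00266 had a leaf group mean of 386 CPM before treatment and 308 CPM in the 4 h control. This count ran from 1 to 5 when 1 replicate number was left out, where 26.4% to 35.2% of all genes were called.

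For ABA against control in leaves, edgeR's quasi-likelihood test called 0 of 47 members at any of the 4 times, where from the earliest time to the latest 0.0972%, 1.55%, 3.15% and 2.21% of all genes were called. By direction, 0 members were called higher with ABA, where 0.0897%, 0.882%, 1.97% and 1.56% of all genes were, and 0 lower, where 0.00747%, 0.673%, 1.18% and 0.65% were. At an unadjusted p under 0.05 the counts were 0, 6, 3 and 2 members, and 1035, 2032, 2317 and 2167 of the 13378 genes tested. DESeq2 called 0 members at each time, and 0.239%, 2.76%, 4.38% and 3.21% of all genes. The lowest adjusted p of Vitvi15g00725 at any leaf time was 0.608 by edgeR, at 4 h, for a log2 difference of 0.17 with a standard error of 0.14. Vitvi05g02046 had its lowest adjusted p by edgeR, 0.509, at the same time, for a log2 difference of 0.21 (SE 0.14). With TMM scaling the members' median log2 differences were 0.05, 0.11, 0.02 and -0.03, and those of all genes tested -0.01, 0.00, 0.01 and 0.01. For ABA against control in buds with time as a block, edgeR called 0 of 47 members, where 16.3% of all genes (9.72% higher and 6.56% lower with ABA) and 15.8% of the abundant genes were called. At an unadjusted p under 0.05 there were 0 members and 5103 genes in all, and DESeq2 called 0 members and 19.2% of all genes. The members' bud log2 differences in that fit ran from -0.08 to 0.30 with a median of 0.09, against -0.02 over all genes tested. These contrasts also use group means of the rule, and nothing is read from them.

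The replicate number was the measure whose effect did not enter the choice, since each of replicates 1 to 4 occurs once in each of the 8 leaf groups after treatment. In a model of group plus replicate number, edgeR called 0 of 47 members and 0 of 13253 genes in all, a background of 0%. DESeq2 also called 0 members and 0 genes in all. At an unadjusted p under 0.05 there were 0 members and 663 genes. The largest difference between the 4 numbers had a median of 0.15 on the log2 scale in the members, with a highest value of 0.27. The median was 0.18 in the abundant genes and 0.27 in all genes tested. The member with the lowest unadjusted p was Vitvi06g00515, with an F of 2.53 and an edgeR adjusted p of 0.960, which other members shared. With no gene called anywhere, the test separates the members from no other genes.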

How the data were processed

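The authors deposited raw read counts per gene from QuantSeq 3′ libraries sequenced on a NextSeq500, in a leaf and a bud table with the same identifiers, per the labels' protocols. FastQC, STAR and DESeq2 are listed in the submitters' processing notes without version or role. Not given in the sources used here are the genome build, the annotation, the counter and its strand setting, so tags of near-identical gene copies or antisense partners may be shared. All 74 columns were used and matched to samples by header name and title. The leaf pre-treatment header has 4 names that occur 2 times each, so these 8 columns were used as group members with no replicate number. Bud samples titled 72 h carry the code 75 in their descriptions, and the title's time is used.

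The members and lists were chosen with earlier results of these data known. CPM is the deposited count divided by the column total times 1000000. Tests used edgeR 4.0.16 in R 4.3.3 on the counts with TMM factors, after filterByExpr with a minimum count of 10, which left 13378 leaf genes (99.4% of counts), 13253 for the replicate number and 15860 bud genes (99.5%). All 47 members passed. The 40 leaf libraries shared 1 estimate of the spread. Bud columns were summed to 5 ABA and 5 control libraries with time as a block, so the error term of that test is how much the ABA difference varied from time to time. DESeq2 1.42.0, other scalings and filters, a flow-cell term and left-out replicates were tried as alternatives. The edgeR steps were tested on simulated counts with planted 2-fold changes. These are larger than the rule's limit of 1.41-fold, so the check does not cover differences of the size the members could have. Identifiers named by rule are the 2 most level members, the one with the highest smaller-of-leaf-and-bud mean, those furthest above and below in buds against leaves, the genes nearest inside and outside the limit, and the member with the lowest adjusted p for replicate number, where ties were resolved by the unadjusted p. Further identifiers are said to be chosen after their values were seen, or are listed as nearest the limit or as called. Intervals and chi-square values cover counting error only.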

Additional observations from a re-analysis of the deposited data

Results flagged for a closer look

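For the 7 genes named by rule and the members' summed share, the leaf groups and the 48 h control buds, 80 groups of values in all, were searched for a single library far from the others, by the gap to its nearest neighbour as a part of the group's range, and 8 were found. Chance gives about 1 in 20 groups. In Vitvi11g00659 a pre-treatment library stood at 87.0 CPM with the others at 53.0 to 67.9 CPM. In the 2 h control, replicate 4 stood at 93.1 CPM above 63.4 to 67.9 CPM. With ABA at 4 h, replicate 3 stood at 88.4 CPM above 78.4 to 79.5 CPM. In Vitvi05g02046, replicate 4 of the 4 h control stood at 835.9 CPM below 887.5 to 892.4 CPM. In Vitvi07g00211, replicate 4 of the 48 h control stood at 228.7 CPM above 162 to 172 CPM, and replicate 4 of ABA at 48 h stood at 254 CPM above 179.8 to 186 CPM. In Vitvi06g00515, replicate 4 of ABA at 48 h stood at 176.6 CPM below 213 to 220 CPM. The members' share of counts in replicate 2 of the 24 h control was 0.817%, with the other replicates at 0.780% to 0.783%. ABA 48 h replicate 4, found in both Vitvi07g00211 and Vitvi06g00515, is on the second flow cell, and the part of the flow cell in these values was not tested.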

How the results depend on the processing

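The number of members called for any difference among leaf groups was 8, with 39.6% of all genes called. Without the count filter it was 0 (19.3% of all genes), and the cause was not tested. With each of replicates 1 to 4 left out it ran from 1 to 5 (26.4% to 35.2%). After treatment only, which drops the pre-treatment libraries, it was 1 with a replicate block (31.2%) and 2 without one (32.6%), the second being an alternative chosen after seeing the data. It was 9 with RLE scaling (39.6%), 6 without the second flow cell (33.9%), 8 with a flow-cell term (38.5%) and 12 with DESeq2 (45.0%). All 76 alternative counts for ABA and for replicate number were 0. In these settings 0.0293% to 4.69% of all genes were called for ABA in leaves and 6.56% to 26.2% for ABA in buds. For replicate number it was at most 0.00388% of all genes. The rule limited the members' ABA differences and almost no gene was called for replicate number, so nothing is read from these counts. Whether the replicate numbers pair the samples is not known, since the labels do not tie a leaf library to a vine. Deviations from group means were correlated over 16 pairs of a control and an ABA library with the same number and time. The correlation ran from -0.22 to 0.16 (median -0.05) and was over 0.1 in 2.

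The rule chose 34 genes with TMM and 37 with RLE, within 1.5 times the 47 members, but 14 and 18 of them were members, so most of the set was replaced. It chose 49 genes (all 47 members among them) when group means were taken on log2(CPM + 1), 53 (44 of them members) without the second flow cell, and 36 to 49 with 1 replicate number left out, and 18 members were chosen under each number left out. The median SD within leaf groups was 0.185 with TMM and 0.172 without the second flow cell. Limits: the bud groups are 1 sample each and members hold as few as 54 counts in a leaf library.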
